A study of Mus musculus with 12 samples.

Results

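The genes described here carry antigen presentation by major histocompatibility complex (MHC) molecules, the cell surface proteins that display peptides to T cells. They were taken from the deposited count table by name: every row typed as protein-coding whose symbol begins with H2-, the prefix of the mouse MHC, plus B2m, Tap1, Tap2, Tapbp, Tapbpl, Psmb8, Psmb9, Psmb10, Psme1, Psme2, Nlrc5, Ciita, Cd74 and Erap1. That gave 42 genes of the 24934 in the table. Of these, 28 held enough reads to be tested, among 13249 genes tested in all, and 14 did not. H2-Ke6 entered by its prefix alone, since it encodes a steroid dehydrogenase and is an MHC gene only by position.

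RNA was sequenced from BV2 cells, a single immortalized mouse microglial line, in 3 groups of 4 libraries, 12 in all. The Acacetin libraries came from BV2 cells given the plant flavone acacetin at 10 µM. By the series' design text the compound followed oxygen-glucose deprivation and re-oxygenation, while the treatment label names the compound alone. The OGD libraries came from BV2 cells put through that deprivation and re-oxygenation, a culture model of ischaemia and reperfusion, with no acacetin named. The Control libraries came from BV2 cells labelled as controls. Nothing in the labels says whether the 4 libraries of a group were separate cultures, so p-values measure the spread between these libraries, which may be technical.

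Class I molecules pair a heavy chain with the light chain encoded by B2m and show peptides from inside the cell to cytotoxic T cells. The peptides are cut by the proteasome, in which the inducible subunits Psmb8, Psmb9 and Psmb10 can replace constitutive ones, pumped into the endoplasmic reticulum by the Tap1 and Tap2 transporter, trimmed by Erap1 and loaded with the help of tapasin (Tapbp). Class II molecules pair an alpha with a beta chain, assemble on the invariant chain Cd74, and exchange its fragment for antigen with the help of H2-DM, which H2-O inhibits. The coactivators Nlrc5 and Ciita drive class I and class II genes, and interferon gamma induces both sets. Microglia in a resting brain carry little of either, and more of both in inflammation.

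Many of these genes sit next to each other on chromosome 17: the H2- genes, Tap1, Tap2, Tapbp, Psmb8 and Psmb9. B2m lies on chromosome 2, Tapbpl on 6, Nlrc5 and Psmb10 on 8, Erap1 on 13, Psme1 and Psme2 on 14, Ciita on 16 and Cd74 on 18. Tap1 and Psmb9 are transcribed away from each other from starts 225 bases apart, so 1 stretch is the promoter of both, and it is shown because both genes were lower in Acacetin than in Control libraries. It is followed by the 250 bases before the starts of H2-K1 and H2-D1, the main class I heavy chains, of H2-T22, B2m, H2-Aa and H2-Oa. Sequences are from RefSeq on GRCm38.p6, read 5′ to 3′ toward the gene's start, and capitals mark the motifs named after them.

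Tap1 and Psmb9, chr17:34187331-34187555, plus strand: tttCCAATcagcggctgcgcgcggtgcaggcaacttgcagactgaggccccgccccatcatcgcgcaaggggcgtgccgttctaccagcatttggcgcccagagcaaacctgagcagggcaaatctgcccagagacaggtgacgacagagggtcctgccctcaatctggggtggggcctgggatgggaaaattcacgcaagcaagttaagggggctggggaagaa

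H2-K1, chr17:34000348-34000597, minus strand: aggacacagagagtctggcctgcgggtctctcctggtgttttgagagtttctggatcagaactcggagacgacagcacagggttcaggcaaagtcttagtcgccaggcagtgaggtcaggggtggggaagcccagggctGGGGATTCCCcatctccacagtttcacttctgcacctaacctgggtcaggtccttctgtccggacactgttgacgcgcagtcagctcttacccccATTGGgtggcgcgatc

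H2-D1, chr17:35262844-35263093, plus strand: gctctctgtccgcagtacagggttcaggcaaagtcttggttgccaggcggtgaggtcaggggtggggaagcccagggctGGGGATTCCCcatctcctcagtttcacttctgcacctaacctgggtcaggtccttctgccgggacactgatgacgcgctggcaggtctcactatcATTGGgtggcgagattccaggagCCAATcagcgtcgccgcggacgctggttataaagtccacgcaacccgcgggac

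H2-T22, chr17:36042743-36042992, minus strand: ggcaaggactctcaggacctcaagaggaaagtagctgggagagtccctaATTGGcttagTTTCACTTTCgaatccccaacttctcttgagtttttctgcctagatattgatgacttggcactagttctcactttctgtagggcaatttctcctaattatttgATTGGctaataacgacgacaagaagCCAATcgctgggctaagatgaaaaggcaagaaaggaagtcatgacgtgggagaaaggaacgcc

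B2m, chr2:122147437-122147686, plus strand: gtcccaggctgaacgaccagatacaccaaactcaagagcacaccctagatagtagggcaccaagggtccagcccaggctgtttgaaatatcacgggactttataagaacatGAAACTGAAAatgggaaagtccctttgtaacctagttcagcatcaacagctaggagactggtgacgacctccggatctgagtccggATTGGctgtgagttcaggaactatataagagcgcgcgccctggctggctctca

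H2-Aa, chr17:34287824-34288073, minus strand: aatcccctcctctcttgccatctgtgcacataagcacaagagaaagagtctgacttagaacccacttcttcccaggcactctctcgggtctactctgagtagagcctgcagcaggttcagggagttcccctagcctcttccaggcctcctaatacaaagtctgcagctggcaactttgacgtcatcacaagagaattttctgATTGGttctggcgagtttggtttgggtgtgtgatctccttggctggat

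H2-Oa, chr17:34092129-34092378, plus strand: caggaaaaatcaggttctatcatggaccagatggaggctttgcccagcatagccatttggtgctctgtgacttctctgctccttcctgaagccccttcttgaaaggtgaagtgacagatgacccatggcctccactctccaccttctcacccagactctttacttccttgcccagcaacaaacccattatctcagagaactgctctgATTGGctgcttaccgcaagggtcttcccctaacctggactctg

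These 250-base windows were searched on both strands in the 34 of the 42 genes that the promoter table held, 22 of them tested for expression, and in all 32851 promoters of that table. The interferon-stimulated response element, searched as GAAA, any 2 bases and GAAA again, was found upstream of B2m, H2-T22 and H2-T23, 3 of 34 windows, and in 2.977% of all windows. The gamma-activated site, searched as TTCNNNGAA, was found upstream of H2-DMb2, H2-M3 and Psmb8, again 3 of 34, and in 7.02% of all windows. A kappaB site, searched as GGGG followed by ATT and CCC, was found upstream of H2-K1, H2-D1, H2-Q6 and H2-Q7, 4 of 34 windows, and in 0.08523% of all windows. The Y box CCAAT was found in 25 of 34 windows and in 33.85% of all. In B2m the response element lay 139 to 130 bases before the start and in H2-T22 191 to 182 bases before it, while the kappaB site lay 111 to 102 bases before the start of H2-K1 and 171 to 162 before that of H2-D1. No 2 motifs overlapped, and a match of letters is a description, not a bound site. Only these fixed letters were searched, so a window without a match may still hold a variant of an element. This applies to H2-K1 and H2-D1, whose windows had no match to the response element as searched.

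Library depth was 24734868 to 32693066 reads in Acacetin, 16427886 to 31811719 in OGD and 24760961 to 28674548 in Control libraries. Ribosomal RNA held 13.1% of the reads of OGD 2 and 21.3% of those of OGD 3, against 0.137% to 1.86% in the other libraries. Levels below are in CPM, reads per gene scaled to library depth after TMM normalisation. Of 14 microglia and macrophage markers, 12 reached a mean of 1 CPM, and P2ry12, with 13 reads in all, and Fcrls, at 0.861 CPM, did not. Their sum was 2768 to 4270 CPM in Acacetin, 3286 to 4802 CPM in OGD and 3750 to 4517 CPM in Control libraries. Of the markers of other cells, those at a mean of 1 CPM or more were Batf3, Itgax and Zbtb46 of 8 for dendritic cells, Cd79b of 7 for B cells, Cd28 and Lck of 8 for T cells, Aldoc of 8 for astrocytes and Tubb3 of 8 for neurons, and none of 8 for fibroblasts. Of these, Aldoc averaged 140 CPM, Itgax 34.9, Batf3 24.5, Lck 11.2 and Cd28 10.9. Tubb3 averaged 3.47 CPM, Cd79b 1.99 and Zbtb46 1.15. Among the markers under 1 CPM, Ms4a1 and Clec9a had 1 read each over the 12 libraries, and Cd3g, Cd8a and Aqp4 none. Others under 1 CPM held more, with 184 reads for Slc1a2, 162 for Slc17a7, 92 for Flt3 and 60 for Cd3d.

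Per gene length, the members differed widely in level. FPKM as the authors deposited them divide fragments by gene length and by depth. In this unit B2m reached the highest values, at 358 to 876 over the 12 libraries. H2-D1 stood at 336 to 541, Cd74 at 280.4 to 533 and H2-K1 at 174 to 269. The ranges of B2m, H2-D1 and Cd74 overlapped, and H2-D1 was above B2m in Acacetin 1, OGD 1 and Control 1. The activator genes Psme1 at 88.5 to 166 and Psme2 at 88.8 to 146, and the proteasome genes Psmb10 at 64.1 to 121 and Psmb8 at 65.1 to 105, came next, and their ranges overlapped. Tap1 at 6.01 to 11.9, Tap2 at 4.90 to 8.19 and Psmb9 at 6.98 to 15.6 were lower, and the coactivator Nlrc5 stood at 0.830 to 2.83. The class II chains were near the bottom, H2-Aa at 0.0700 to 0.480 and H2-Eb1 at 0.0400 to 0.460, although their chaperone Cd74 was among the 4 highest. The Cd74 to H2-Aa ratio of FPKM was 1110 to 6066, and it depends on the lengths used. The deposited counts and FPKM together imply 4453 bases for H2-Aa and 1967 for Cd74. Their longest coding GENCODE transcripts have 1128 and 1410 bases. In reads over the 12 libraries, Cd74 had 273018 and H2-Aa 314.

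OGD against Control asks what deprivation and re-oxygenation did. Levels of 6 of the 28 tested genes fell (the class I-like gene H2-T22, the class II pathway genes H2-Aa, H2-Eb1, H2-DMb1 and H2-Oa, and H2-Ke6), those of 3 rose (Tapbpl, Psmb10 and Nlrc5), and 19 did not pass the test. A call means an adjusted p under 0.05 over all tested genes in edgeR's quasi-likelihood test. The 9 calls are 32.1% of the 28, near the 28.8% of all tested genes that were called. The 6 lower ones are 21.4%, against 12.6% of all genes. H2-Eb1, 1 of the 6, passed the low-count filter only through its Control libraries. The median log2 fold change of the 28 was -0.16, beside 0.03 for all genes tested. Without OGD 2 and OGD 3, 1 gene was higher and 6 were lower among 30 tested, and only 5 of the 9 calls were kept. In that fit 14.5% of all tested genes were called. The 4 OGD and 4 Control libraries did not overlap for 4 genes that were higher and 11 that were lower, where 36.0% of all genes did not overlap. In bulk RNA, fewer cells expressing a gene and less RNA per cell cannot be told apart.

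Acacetin against OGD asks what acacetin changed in deprived cells, as the design text describes the groups. No gene described here was called, and neither was any of the 13249 genes by edgeR, so the background is 0%. At an unadjusted p under 0.05 edgeR gave 685 genes, 5.17% of all. DESeq2 called 30 of 14771 genes, none of them among these 42. Of the 28, 23 had a negative fold change and 5 a positive one, with a median log2 fold change of -0.27 beside -0.02 for all genes. The 6 with an unadjusted p under 0.05 were all lower in Acacetin libraries: H2-Aa, Tap1, H2-Q4, Tap2, Psmb9 and Tapbp. They are 21.4% of the 28, where 3.25% of all genes were lower at that threshold. The smallest adjusted p, of H2-Aa, was 0.309. The Acacetin and OGD libraries did not overlap for 3 genes, H2-Aa, Tap1 and H2-Q4, all lower in Acacetin, where 2.35% of all genes did not overlap and 1.88% were lower. Acacetin 1 and Acacetin 3 stood at opposite ends of their group: the level in Acacetin 1 was the highest of the 4 for 19 of the 28 genes (67.9%, against 42.2% of all genes) and that in Acacetin 3 the lowest for 21 (75%, against 42.8%). Expression also followed gene length in opposite senses in those 2 libraries, with slopes of -0.154 and 0.231 log2 units per doubling of length. The part of this in the results was not tested. No gene described here was called either without these 2 libraries or with the length trend removed.

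Acacetin against Control sets the compound and the deprivation together against control cells. Levels of 14 of the 28 fell, those of 2 rose (Tapbpl and Nlrc5), and 12 did not pass. The fallen genes were H2-M3, H2-Q4, H2-T22 and H2-T23 among the class I heavy chains, Tap1 and Tap2, Psmb9 and Psme1, the class II pathway genes H2-Aa, H2-DMb1, H2-DMb2, H2-Eb1 and H2-Oa, and H2-Ke6. The 16 calls are 57.1% of the 28, where 26.9% of all genes were called, and the 14 lower ones are 50%, where 12.9% of all genes were lower. H2-Eb1 is among the 14 through a filter that only its Control libraries passed. The median log2 fold change was -0.49, beside 0.08 for all genes. The Acacetin and Control libraries did not overlap for 2 genes that were higher and 10 that were lower, where 25.7% of all genes did not overlap. The count moved with single libraries: it was 10 without Acacetin 2, 23 without Acacetin 1 and 11 to 14 without any other 1 library. It was 17, with 15 lower, without Acacetin 1 and Acacetin 3 together. The share of all tested genes called also moved, to 18.2% without Acacetin 2, 43.1% without Acacetin 1 and 28.9% without Acacetin 1 and Acacetin 3. The members tested in these 3 fits were 30, 29 and 29. All 3 comparisons share groups of libraries with each other, so their values are set side by side below and not counted as separate evidence.

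**Figure D1:**
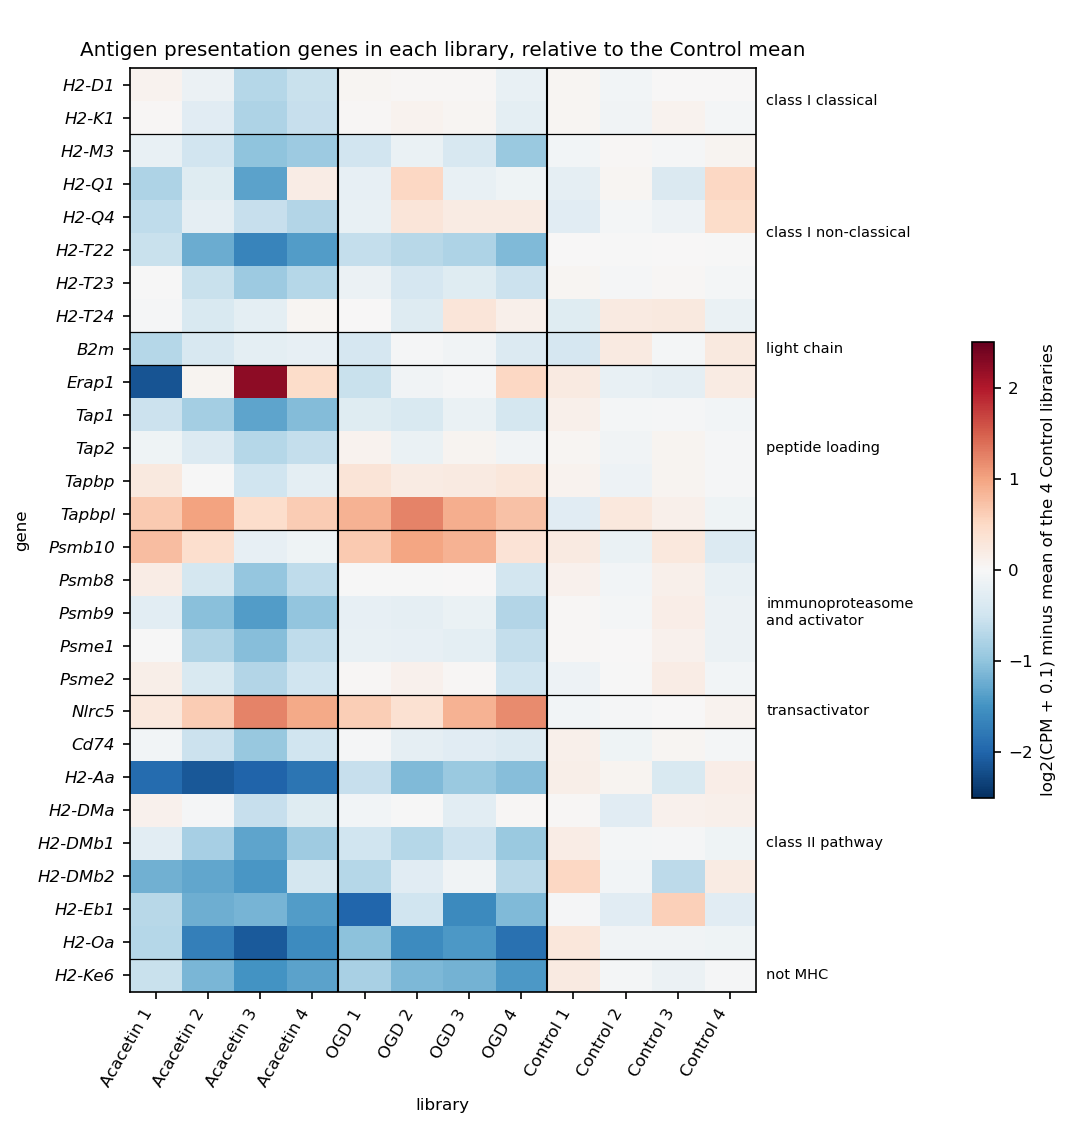
Level of the 28 tested genes (rows, by role) in each library (columns: Acacetin, OGD, Control), as log2(CPM + 0.1) minus the mean of the 4 Control libraries; blue is lower and red higher. H2-T22, H2-Aa, H2-DMb1, H2-Oa and H2-Ke6 are blue in every Acacetin and OGD library, Tapbpl and Nlrc5 are red in every one, and Acacetin 3 holds the deepest blue of its group in most rows.

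**Figure D2:**
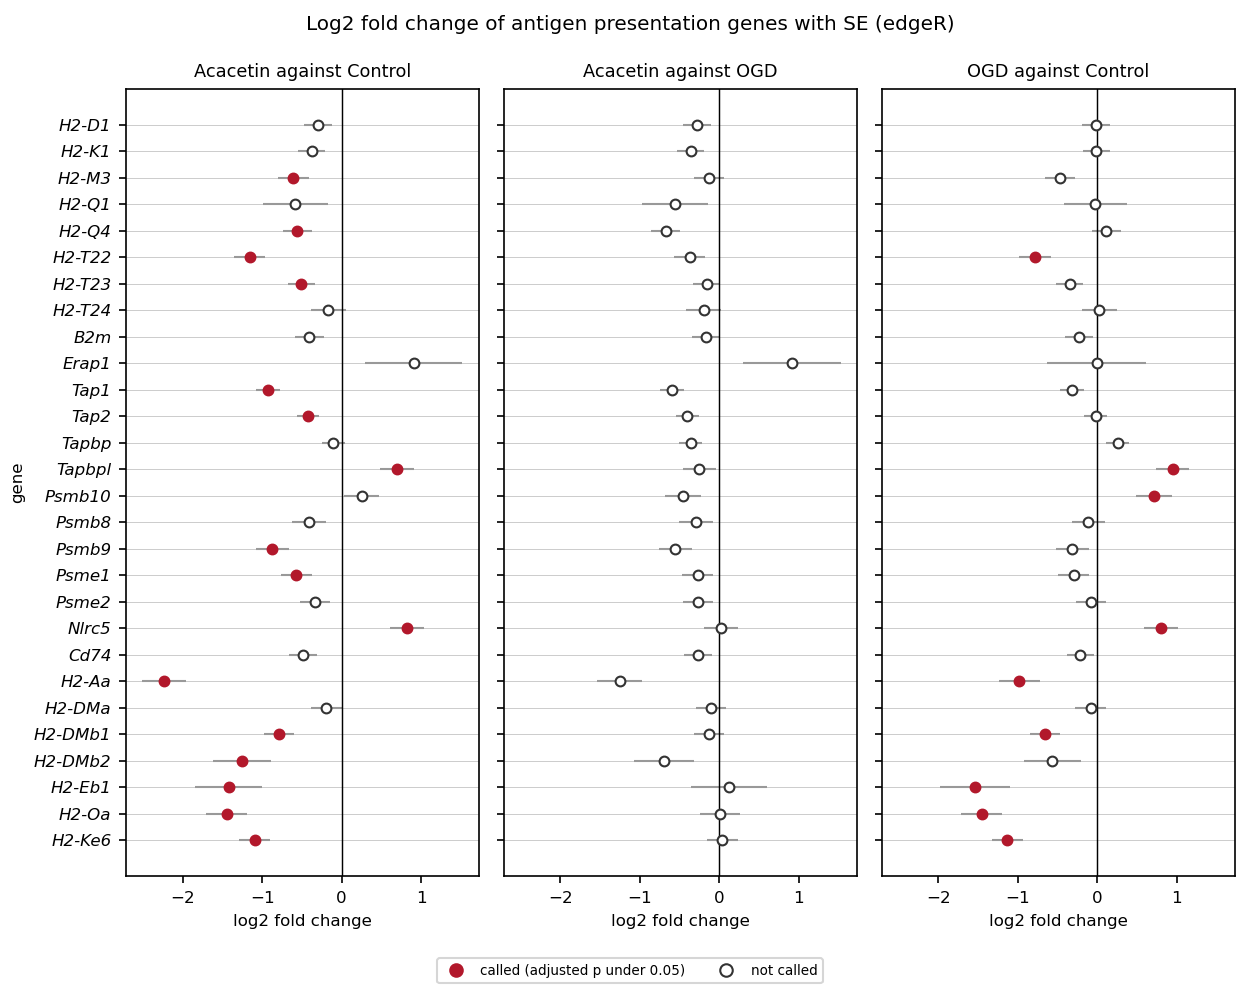
Log2 fold change of each tested gene (dots) with its standard error (lines) in the 3 comparisons, with filled dots at an edgeR adjusted p under 0.05. Acacetin against Control has 2 filled dots right of 0 and 14 left of it, Acacetin against OGD none, and OGD against Control 3 right and 6 left.

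The classical class I heavy chains H2-K1 and H2-D1 were not called in any comparison with all libraries, and both passed in Acacetin against Control without Acacetin 1 (adjusted p = 0.0108 and 0.0296). H2-K1 had 892, 718, 509.9 and 587 CPM in Acacetin, 899.9, 935, 904 and 738 CPM in OGD, and 901, 826, 934 and 847 CPM in Control libraries. H2-D1 had 1599, 1353, 915 and 1015 CPM in Acacetin, 1537, 1532, 1530.2 and 1316 CPM in OGD, and 1543, 1429.9, 1503 and 1506 CPM in Control libraries. For both genes the Acacetin libraries were spread widely, with Acacetin 1 inside or above the Control values and Acacetin 3 and 4 under every OGD and Control library, and the groups overlapped. The log2 fold change of H2-K1 was -0.013 ± 0.17 (SE) in OGD against Control, -0.36 ± 0.17 in Acacetin against OGD and -0.37 ± 0.17 in Acacetin against Control, with adjusted p of 0.968, 0.83 and 0.120. That of H2-D1 was -0.016 ± 0.18, -0.28 ± 0.18 and -0.29 ± 0.18 in the same order, with adjusted p of 0.961, 0.830 and 0.229. Summing the reads of all 19 class I heavy chains into 1 feature, so that a split of reads among these 19 has no effect, gave log2 fold changes of -0.08, -0.30 and -0.38, with adjusted p of 0.794, 0.83 and 0.140. The rows H2-T10, H2-Q5 and H2-K2, which the table types as pseudogenes, are outside the sum. H2-K1 and H2-D1 held 87.3% ± 0.79 of these summed CPM in Acacetin, 87.7% ± 0.47 in OGD and 83.9% ± 0.41 in Control libraries (SD, n = 4 each).

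Among the 6 tested non-classical heavy chains, H2-T22, a ligand of some gamma-delta T cell receptors, had the largest fold changes against Control. It had 108, 67.2, 50.6 and 61.0 CPM in Acacetin, 106, 98.6, 93.3 and 73.8 CPM in OGD, and 161, 158, 159.9 and 159.7 CPM in Control libraries. No Acacetin or OGD library reached the lowest Control value, and the Control libraries lay within 3 CPM of each other. The log2 fold change was -0.78 ± 0.20 in OGD against Control (adjusted p = 0.00919) and -1.16 ± 0.20 in Acacetin against Control (adjusted p = 0.00117), while Acacetin against OGD was not called (-0.38 ± 0.20, adjusted p = 0.83). Of the 75-base words of its transcript, 25% also occur in other genes, 20.1% in H2-T10, so its reads could be split between the 2 by the authors' counting.

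H2-M3, which presents peptides with a formylated start, and H2-T23, which encodes the Qa-1 molecule read by inhibitory receptors of natural killer cells, fell in Acacetin against Control. H2-M3 had 34.6, 28.2, 19.6 and 20.9 CPM in Acacetin, 28.0, 34.9, 29.8 and 20.6 CPM in OGD, and 37.6, 39.7, 38.5 and 41.0 CPM in Control libraries. H2-T23 had 228, 156, 122 and 139.9 CPM in Acacetin, 206.1, 171, 186 and 158 CPM in OGD, and 237, 225, 233 and 222 CPM in Control libraries. The H2-M3 values of all Acacetin libraries were under the Control ones, whereas the H2-T23 groups overlapped through Acacetin 1. In Acacetin against Control the log2 fold change was -0.61 ± 0.19 for H2-M3 (adjusted p = 0.0306) and -0.51 ± 0.17 for H2-T23 (adjusted p = 0.0413). Either call was lost without Control 1, 2 or 3 and without Acacetin 2, 3 or 4, with adjusted p of 0.0521 to 0.0873 for H2-M3 and 0.0823 to 0.109 for H2-T23. The H2-T23 call was also lost with only the 8 libraries compared and in limma on FPKM (adjusted p 0.0807 to 0.101). OGD against Control was not called for either, at -0.47 ± 0.19 (adjusted p = 0.0798) and -0.35 ± 0.17 (adjusted p = 0.148), although in both genes every OGD library lay under every Control library. H2-M3 passed there in 9 of 19 alternatives, over which adjusted p ran between 0.00572 and 0.197, among them the fit with the replicate number as a block (-0.50, adjusted p = 0.0406). H2-T23 passed there in 4 of 19 alternatives, with adjusted p between 0.0274 and 0.287.

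H2-Q4, another non-classical heavy chain, was lowest in the Acacetin libraries. It had 12.6, 16.8, 13.2 and 11.8 CPM in Acacetin, 17.4, 24.3, 22.7 and 22.7 CPM in OGD, and 16.1, 19.1, 18.01 and 27.0 CPM in Control libraries. Every Acacetin library was under every OGD library, and Acacetin 2 lay above Control 1. The log2 fold change was -0.56 ± 0.18 in Acacetin against Control (adjusted p = 0.0371) and -0.67 ± 0.18 in Acacetin against OGD, where it did not pass (unadjusted p = 0.00253, adjusted p = 0.656). The call against Control was lost without Control 2 or 4 and without Acacetin 3 or 4 (adjusted p 0.0666 to 0.142). It was also lost with no filter, with only the 8 libraries compared, with the length trend removed, without Acacetin 1 and Acacetin 3, and in limma on the deposited FPKM (adjusted p 0.0525 to 0.274). H2-Q1 and H2-T24 were tested and called nowhere. H2-Q1 averaged 0.441 ± 0.237 CPM in Acacetin, 0.654 ± 0.198 in OGD and 0.658 ± 0.217 in Control libraries, and H2-T24 4.08 ± 0.549, 4.68 ± 0.850 and 4.59 ± 0.875 CPM in those groups (SD, n = 4 each).

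B2m, the light chain that every class I molecule needs, had 415, 519.6, 573 and 591 CPM in Acacetin, 511, 672, 641 and 541 CPM in OGD, and 509, 799.9, 657 and 812 CPM in Control libraries. The groups overlapped and no comparison was called, with log2 fold changes of -0.23 ± 0.18 in OGD against Control, -0.17 ± 0.18 in Acacetin against OGD and -0.40 ± 0.18 in Acacetin against Control (adjusted p of 0.362, 0.894 and 0.105). Acacetin against Control passed for B2m without Control 1 (-0.53, adjusted p = 0.0487). Unlike most of these genes it was lowest in Acacetin 1 and highest in Acacetin 4 of its group. The ratio of summed class I heavy chain FPKM to B2m FPKM depends on the gene lengths used. It was 1.39 ± 0.595 in Acacetin, 1.45 ± 0.192 in OGD and 1.34 ± 0.341 in Control libraries (SD, n = 4 each).

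**Figure D3:**
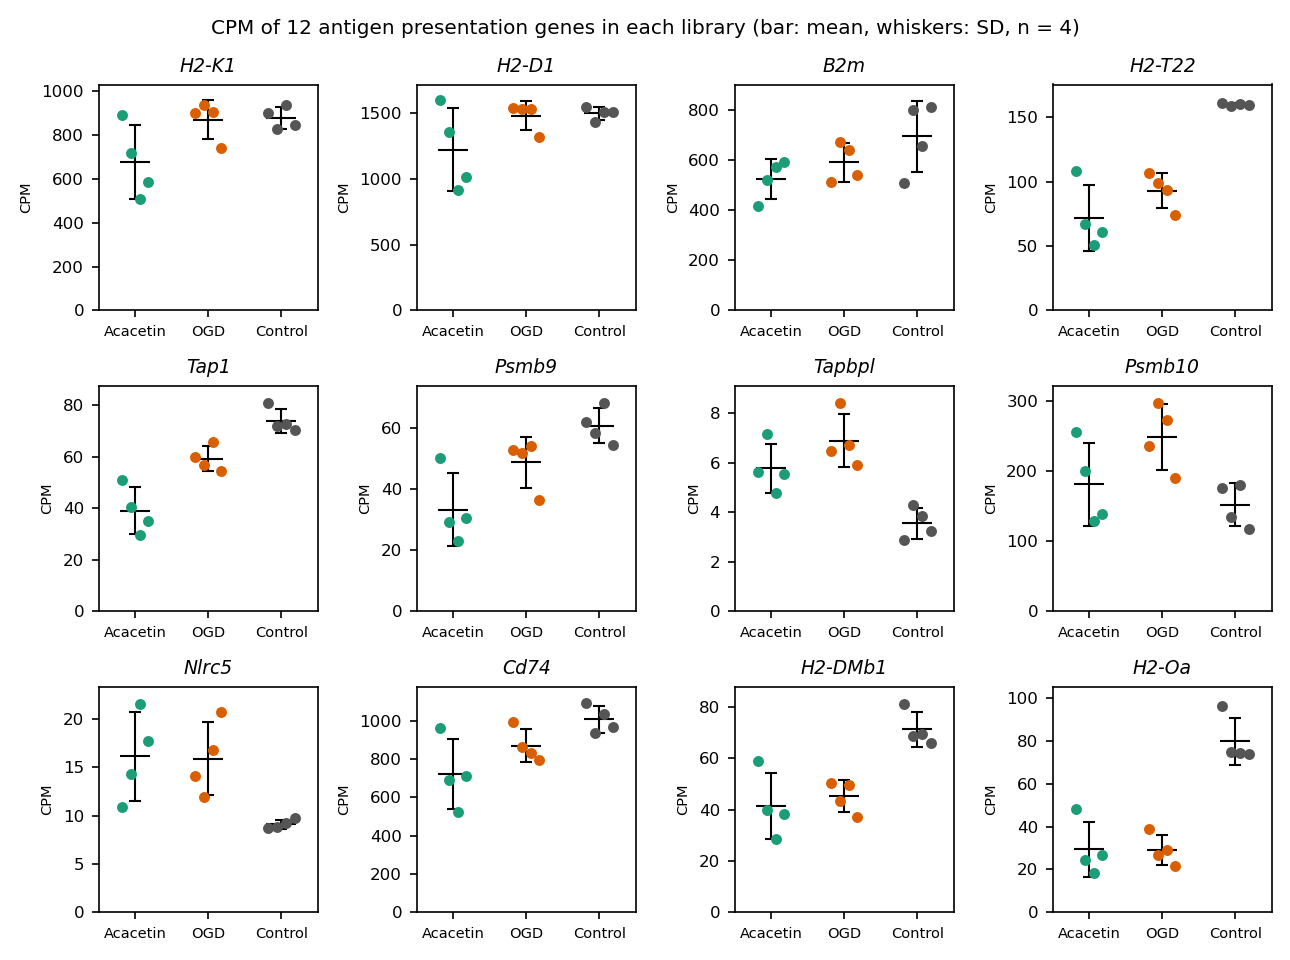
CPM of 12 antigen presentation genes by group (Acacetin, OGD, Control), each dot a library, with the mean (bar) and SD (whiskers, n = 4). H2-K1 and H2-D1 overlap between groups, H2-T22 and H2-Oa are lower in all Acacetin and OGD libraries than in any Control library, and Tapbpl and Nlrc5 are higher in all of them.

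The peptide transporter genes were lower in the Acacetin libraries. Tap1 had 51.1, 40.7, 29.6 and 34.9 CPM in Acacetin, 59.9, 56.6, 65.8 and 54.5 CPM in OGD, and 80.9, 71.7, 72.8 and 70.4 CPM in Control libraries. Tap2, its partner, had 29.2, 25.0, 19.2 and 20.8 CPM in Acacetin, 33.5, 28.1, 33.3 and 29.6 CPM in OGD, and 32.6, 29.7, 33.2 and 30.9 CPM in Control libraries. The Tap1 groups did not overlap: every Acacetin library was under every OGD library, and every OGD library under every Control library. For Tap1 the log2 fold change was -0.92 ± 0.15 in Acacetin against Control (adjusted p = 9.42e-04), a call kept in all 19 alternatives, -0.60 ± 0.15 in Acacetin against OGD (unadjusted p = 0.00141, adjusted p = 0.484) and -0.32 ± 0.15 in OGD against Control (adjusted p = 0.131). Tap2 reached -0.43 ± 0.14 in Acacetin against Control (adjusted p = 0.0392), -0.40 ± 0.14 in Acacetin against OGD (adjusted p = 0.83) and -0.021 ± 0.14 in OGD against Control (adjusted p = 0.932). The Tap2 call was lost without Control 1, 2 or 3, without Acacetin 2, 3 or 4 (adjusted p 0.0642 to 0.109), and also with no filter, with only the 8 libraries compared and in limma on FPKM (adjusted p 0.0615 to 0.292).

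Of the loading chaperones, Tapbpl rose in both treated groups against Control and tapasin passed in no comparison. Tapbpl, a tapasin relative that edits class I peptides, had 5.60, 7.13, 4.78 and 5.53 CPM in Acacetin, 6.47, 8.39, 6.72 and 5.91 CPM in OGD, and 2.86, 4.27, 3.85 and 3.25 CPM in Control libraries. Every Acacetin and OGD library was above every Control library. The log2 fold change was 0.95 ± 0.21 in OGD against Control (adjusted p = 0.00469) and 0.69 ± 0.21 in Acacetin against Control (adjusted p = 0.0269), where the call was lost without Control 1 and without Acacetin 2 (adjusted p 0.0831 to 0.0898), and with no filter or only the 8 libraries compared (adjusted p 0.0519 to 0.0561). Tapasin itself, Tapbp, had 185, 154, 109.9 and 132 CPM in Acacetin, 195, 180.3, 181 and 189 CPM in OGD, and 166, 143, 162 and 152 CPM in Control libraries. All OGD libraries were above all Control libraries, but neither OGD against Control (0.26 ± 0.15, adjusted p = 0.213) nor Acacetin against OGD (-0.36 ± 0.15, adjusted p = 0.83) passed. Erap1, the trimming peptidase, had 4.22 ± 4.64 CPM in Acacetin, 2.25 ± 0.733 in OGD and 2.27 ± 0.391 in Control libraries (SD, n = 4 each), the Acacetin spread running between 0.427 CPM in Acacetin 1 and 10.96 CPM in Acacetin 3. It was not called with all libraries, while in Acacetin against Control its log2 fold change was 1.27 without Acacetin 1 (adjusted p = 0.0281) and -0.17 without Acacetin 3 (adjusted p = 0.828).

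Of the 3 inducible proteasome subunits, Psmb9 fell in Acacetin against Control, Psmb10 rose in OGD against Control and Psmb8 was called in neither. The difference between the subunits was not tested. Psmb9 had 50.3, 29.1, 22.9 and 30.6 CPM in Acacetin, 52.7, 51.9, 54.2 and 36.3 CPM in OGD, and 62.0, 58.3, 68.0 and 54.5 CPM in Control libraries. Psmb9 was lowest in the Acacetin libraries, all of them under the lowest Control value, with a log2 fold change of -0.87 ± 0.21 in Acacetin against Control (adjusted p = 0.00811), a call kept in all 19 alternatives. The value was -0.55 ± 0.21 in Acacetin against OGD (adjusted p = 0.83) and -0.32 ± 0.21 in OGD against Control (adjusted p = 0.282). Psmb8 had 442, 285, 198 and 249.6 CPM in Acacetin, 383, 384, 391 and 284 CPM in OGD, and 419.9, 371, 425 and 342 CPM in Control libraries. Its groups overlapped in every comparison and none passed, the log2 fold changes being -0.11 ± 0.21 in OGD against Control, -0.29 ± 0.21 in Acacetin against OGD and -0.41 ± 0.21 in Acacetin against Control. This last value passed without Acacetin 1 (adjusted p = 0.00459) and without Acacetin 1 and Acacetin 3 (adjusted p = 0.0246). Psmb10 had 256, 199.7, 129.5 and 139 CPM in Acacetin, 236, 298, 273 and 189.9 CPM in OGD, and 176, 134, 180.2 and 118 CPM in Control libraries. It rose in OGD against Control (0.71 ± 0.23, adjusted p = 0.0289), with every OGD above every Control library, but the call was lost without the 2 libraries rich in ribosomal RNA, OGD 2 and OGD 3 (adjusted p = 0.222), and without Control 2, Control 4, OGD 2 or OGD 3 alone (adjusted p 0.0558 to 0.0874). In Acacetin against Control Psmb10 did not pass (0.25 ± 0.22, adjusted p = 0.416).

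Each inducible subunit was also set against the constitutive subunit it replaces, as a ratio of FPKM within a library and with no test. Psmb8 over Psmb5 was 0.0867, 0.0756, 0.0816 and 0.0893 in the Acacetin libraries, 0.0986, 0.0913, 0.0997 and 0.106 in the OGD libraries, and 0.0957, 0.116, 0.120 and 0.119 in the Control libraries. Psmb9 over Psmb6 was 0.0163, 0.0142, 0.0163 and 0.0169 in the Acacetin libraries, 0.0224, 0.0209, 0.0240 and 0.0227 in the OGD libraries, and 0.0216, 0.0228, 0.0254 and 0.0225 in the Control libraries. Psmb10 over Psmb7 was 0.520, 0.523, 0.446 and 0.428 in the Acacetin libraries, 0.598, 0.614, 0.651 and 0.685 in the OGD libraries, and 0.508, 0.349, 0.456 and 0.337 in the Control libraries. For all 3 pairs every Acacetin library was under every OGD library. For how many other gene pairs the 2 groups separate in this way was not counted, so the 3 have no background beside them. The Acacetin libraries lay closer to each other, relative to their mean, in these ratios than in CPM. By these FPKM levels the constitutive subunit stayed the more abundant of each pair in every library.

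**Figure D4:**
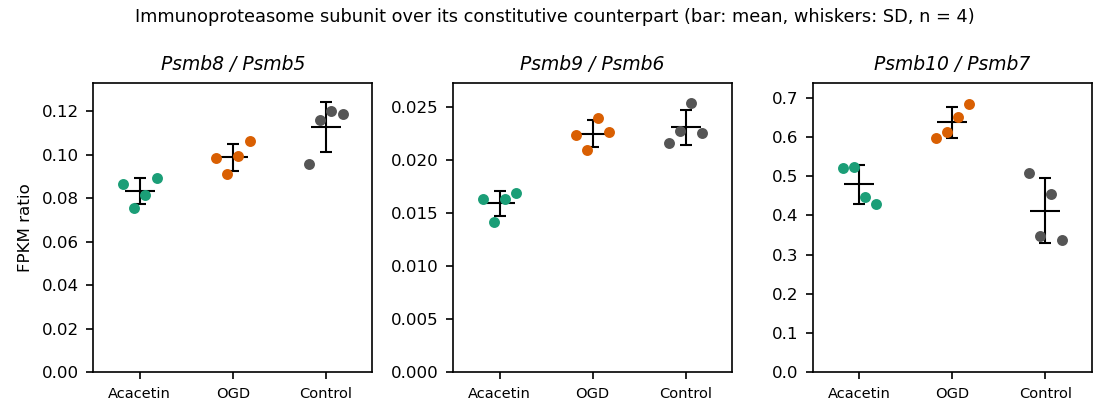
Ratio of FPKM of each inducible proteasome subunit to its constitutive counterpart by group (Acacetin, OGD, Control), each dot a library, with the mean (bar) and SD (whiskers, n = 4). Acacetin means are 0.0833, 0.0159 and 0.479 and OGD means 0.0990, 0.0225 and 0.637, with no overlap between the 2 groups in any of the 3 pairs. Other gene pairs were not examined for such separation.

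Psme1 and Psme2 encode the alpha and beta subunits of the interferon-inducible proteasome activator. Psme1 had 404, 241, 194 and 261 CPM in Acacetin, 359.9, 352, 345 and 271 CPM in OGD, and 414, 411, 439 and 367 CPM in Control libraries. It fell in Acacetin against Control (-0.57 ± 0.19, adjusted p = 0.0435), although Acacetin 1 lay among the Control values, and the call was lost without Control 1, 2 or 3 and without Acacetin 2, 3 or 4 (adjusted p 0.0895 to 0.117) and with only the 8 libraries compared (adjusted p = 0.0833). Psme2 averaged 214 ± 59.6 CPM in Acacetin, 257 ± 45.2 in OGD and 270.4 ± 26.2 in Control libraries (SD, n = 4 each) and was not called, although Acacetin against Control passed without Acacetin 1 (-0.54, adjusted p = 0.0132).

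The class I coactivator Nlrc5 rose in both treated groups. Of the other tested members, Tapbpl also rose in both and Psmb10 rose in OGD. None of the class I heavy chains, B2m, Tap1 or Psmb9 rose in either, and a tie of Nlrc5 to any of these genes was not tested. Nlrc5 had 10.9, 14.3, 21.6 and 17.7 CPM in Acacetin, 14.1, 11.9, 16.8 and 20.7 CPM in OGD, and 8.68, 8.88, 9.20 and 9.72 CPM in Control libraries. Every Acacetin and OGD library was above every Control library, and the 4 Control libraries were tightly grouped. The log2 fold change was 0.80 ± 0.22 in OGD against Control (adjusted p = 0.0131), 0.82 ± 0.22 in Acacetin against Control (adjusted p = 0.0124) and 0.024 ± 0.21 in Acacetin against OGD (adjusted p = 0.988). The first call was lost without OGD 3 (adjusted p = 0.0576) and without OGD 2 and OGD 3 together (adjusted p = 0.0527), and both calls were lost in limma on FPKM. In Acacetin libraries Nlrc5 ran opposite to most of these genes, lowest in Acacetin 1 and highest in Acacetin 3. Those libraries had the most negative and the most positive length slope, and the implied length of Nlrc5 is 10008 bases. In OGD libraries Nlrc5 was lowest in OGD 2 (slope -0.103) and highest in OGD 4 (slope 0.131). In Control libraries it was highest in Control 4, which had the most positive slope (0.0396). Its lowest Control value was in Control 1, whereas Control 3 had the most negative slope. The part of length in the Nlrc5 values was not tested. Ciita, the class II coactivator, had 0.0475, 0, 0.0550 and 0.0323 CPM in Acacetin, 0.0632, 0.150, 0.0781 and 0.0650 CPM in OGD, and 0.123, 0.166, 0.119 and 0.0663 CPM in Control libraries. These were 4 reads in all Acacetin, 8 in all OGD and 12 in all Control libraries, and it was not tested.

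The genes of the class II pathway gave 7 tested members, none of which rose. The invariant chain Cd74 had 961, 691, 522 and 711 CPM in Acacetin, 991, 861, 831 and 793 CPM in OGD, and 1093, 933, 1034 and 965 CPM in Control libraries. Its Acacetin libraries overlapped with both other groups through Acacetin 1, and it was not called, at -0.21 ± 0.17 in OGD against Control (adjusted p = 0.402), -0.27 ± 0.17 in Acacetin against OGD (adjusted p = 0.832) and -0.48 ± 0.17 in Acacetin against Control (adjusted p = 0.0551). This last value passed in 9 of its 19 alternatives, over which adjusted p ran between 0.00369 and 0.162.

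The class II chains H2-Aa and H2-Eb1 were present as traces, with every Control library above every other library. Only H2-Aa also separated Acacetin from OGD. H2-Aa, the alpha chain of the A molecule, had 0.380, 0.320, 0.357 and 0.420 CPM in Acacetin, 1.14, 0.749, 0.859 and 0.780 CPM in OGD, and 1.92, 1.83, 1.31 and 1.96 CPM in Control libraries. Every Acacetin library was under every OGD library, and every OGD library under every Control library. H2-Aa fell by 0.98 ± 0.26 on the log2 scale in OGD against Control (adjusted p = 0.0116) and by 2.24 ± 0.27 in Acacetin against Control (adjusted p = 2.09e-04), and in Acacetin against OGD the value was -1.26 ± 0.28, with an unadjusted p of 4.90e-04 and an adjusted p of 0.309. The OGD call was lost without OGD 2 and OGD 3 (adjusted p = 0.0890). H2-Eb1, a beta chain, had 0.380, 0.233, 0.247 and 0.194 CPM in Acacetin, 0.0947, 0.450, 0.156 and 0.260 CPM in OGD, and 0.655, 0.539, 1.07 and 0.531 CPM in Control libraries. Only its Control libraries, at 16, 13, 27 and 16 reads, reached the filter's minimum count of 10. The OGD libraries had 3, 9, 2 and 8 reads and the Acacetin libraries 8, 8, 9 and 6. H2-Eb1 was thus tested only because Control was high, and its calls are not evidence apart from that selection. It fell by 1.54 ± 0.45 in OGD against Control (adjusted p = 0.0190) and by 1.42 ± 0.42 in Acacetin against Control (adjusted p = 0.0244). Neither group overlapped with Control, while Acacetin and OGD overlapped with each other. Both calls were lost without Control 3, the first also without OGD 1 and the second without Acacetin 2 or 4 (adjusted p 0.0590 to 0.0856).

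The partner of H2-Aa, H2-Ab1, failed the filter on low counts. It had 0.0475, 0.0291, 0 and 0.0646 CPM in Acacetin, 0.0316, 0.04996, 0.0781 and 0.0650 CPM in OGD, and 0.491, 0.0830, 0.357 and 0.232 CPM in Control libraries, or 4 reads in all Acacetin, 5 in all OGD and 30 in all Control libraries. With no filter, edgeR gave H2-Ab1 a log2 fold change of -2.36 ± 0.75 in OGD against Control (adjusted p = 0.0357) and -2.94 ± 0.76 in Acacetin against Control (adjusted p = 0.0110), while DESeq2 gave adjusted p of 0.0549 and 0.0156. At these levels, B cell, dendritic cell and astrocyte marker sums were, like the class II chains, lower outside Control libraries. The summed B cell markers were 0.670 to 1.47 CPM in Acacetin, 0.999 to 2.43 CPM in OGD and 3.17 to 4.56 CPM in Control libraries, carried by Cd79b, 1 of 7 markers, with Ms4a1, Ebf1 and Blk at 1 read or none. The summed dendritic cell markers were 41.9 to 56.8 CPM in Acacetin, 59.97 to 65.9 CPM in OGD and 68.4 to 74.8 CPM in Control libraries, carried by Itgax and Batf3, with Clec9a at 1 read. The astrocyte sum, carried by Aldoc, was 70.6 to 157 CPM in Acacetin, 85.8 to 136 CPM in OGD and 200.4 to 219 CPM in Control libraries. Neuron, T cell and fibroblast sums of both treated groups overlapped with Control. The part of any of these marker sums in the class II values was not tested.

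**Figure D5:**
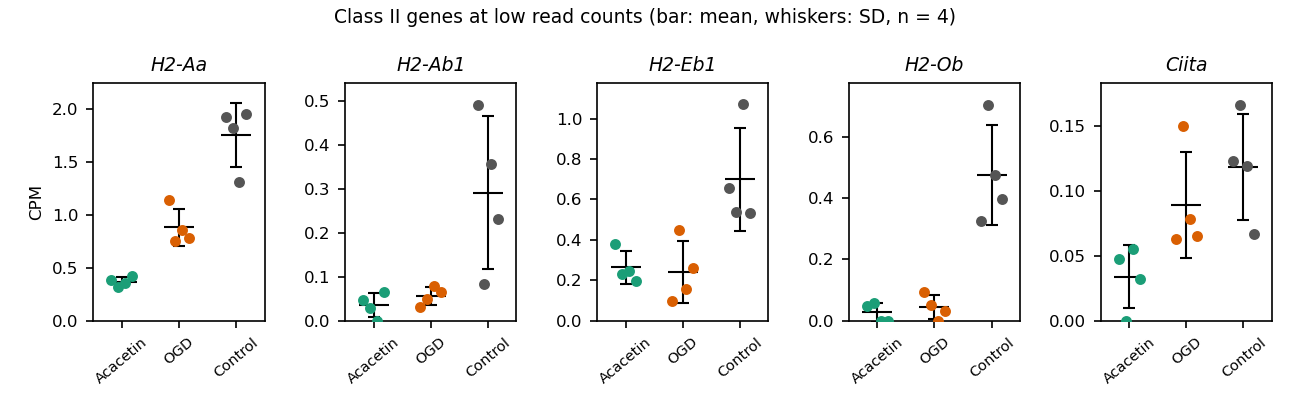
CPM of the low class II genes H2-Aa, H2-Ab1, H2-Eb1 and H2-Ob and of Ciita by group (Acacetin, OGD, Control), each dot a library, with the mean (bar) and SD (whiskers, n = 4). All Control libraries lie above all Acacetin and OGD libraries for H2-Aa, H2-Eb1 and H2-Ob. For H2-Ab1 they do so only by the scaling, since Control 2, OGD 4 and Acacetin 4 each had 2 reads and 0.03 FPKM. The Ciita groups rest on 4, 8 and 12 reads.

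The peptide editor H2-DM is built of the H2-DMa chain and a beta chain from H2-DMb1 or H2-DMb2. H2-DMb1 had 59.0, 39.7, 28.5 and 38.3 CPM in Acacetin, 50.6, 43.3, 49.6 and 37.2 CPM in OGD, and 81.2, 68.6, 69.4 and 65.9 CPM in Control libraries. Every Acacetin and OGD library was under every Control library, and H2-DMb1 fell by 0.66 ± 0.19 in OGD against Control (adjusted p = 0.0173) and by 0.79 ± 0.19 in Acacetin against Control (adjusted p = 0.00778). The first of these was lost without Control 1 (adjusted p = 0.0539) and without OGD 2 and OGD 3 (adjusted p = 0.0583). H2-DMb2, at a far lower level, had 0.380, 0.349, 0.302 and 0.711 CPM in Acacetin, 0.568, 0.799, 0.937 and 0.585 CPM in OGD, and 1.47, 0.954, 0.595 and 1.16 CPM in Control libraries. H2-DMb2 passed in Acacetin against Control (-1.26 ± 0.36, adjusted p = 0.0212), where its groups overlapped, and was lost without Control 1 or 4 and without Acacetin 2 or 3 (adjusted p 0.0553 to 0.0740), and without Acacetin 1 and Acacetin 3 together (adjusted p = 0.112). As 18% of its 75-base words occur in H2-DMb1, some of its reads may be from the more abundant gene. H2-DMa averaged 6.82 ± 1.40 CPM in Acacetin, 7.32 ± 0.643 in OGD and 7.77 ± 0.986 in Control libraries (SD, n = 4 each) and was not called.

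H2-O, the inhibitor of H2-DM, pairs the products of H2-Oa and H2-Ob, and both genes were low outside Control. H2-Oa had 48.1, 24.3, 18.3 and 26.7 CPM in Acacetin, 38.8, 26.7, 29.3 and 21.7 CPM in OGD, and 96.3, 74.5, 74.5 and 73.8 CPM in Control libraries. The highest treated library, Acacetin 1, was well under the lowest Control library. H2-Oa fell by 1.45 ± 0.26 in OGD against Control (adjusted p = 0.00107) and by 1.45 ± 0.26 in Acacetin against Control (adjusted p = 0.00142), both called in every alternative, and Acacetin against OGD gave 0.0066 ± 0.25 (adjusted p = 0.995). H2-Ob had 0.0475, 0.0582, 0 and 0 CPM in Acacetin, 0.0947, 0.04996, 0 and 0.0325 CPM in OGD, and 0.327, 0.705, 0.476 and 0.398 CPM in Control libraries. These were 3 reads in all Acacetin, 5 in all OGD and 49 in all Control libraries, and it failed the filter. With no filter its log2 fold change was -3.12 ± 0.69 in OGD against Control (adjusted p = 0.00318) and -4.01 ± 0.73 in Acacetin against Control (adjusted p = 0.000783). H2-Oa, at 11.8 to 55.4 FPKM, was present without a comparable level of its partner, at 0 to 0.11 FPKM.

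H2-Ke6, the steroid dehydrogenase gene, had 49.2, 32.9, 25.4 and 28.6 CPM in Acacetin, 41.1, 32.9, 31.9 and 26.5 CPM in OGD, and 84.3, 69.9, 65.5 and 70.6 CPM in Control libraries. It fell by 1.13 ± 0.20 in OGD against Control (adjusted p = 9.41e-04) and by 1.09 ± 0.20 in Acacetin against Control (adjusted p = 0.00146), with no overlap with Control libraries, so 1 of the 6 and 1 of the 14 lower calls is not an antigen presentation gene. Of the 14 genes that failed the filter, H2-Q10 had 39, 34 and 12 reads and H2-Q7 had 3, 14 and 10 reads in all Acacetin, OGD and Control libraries, and the other 9 outside those already named had 1 to 9 reads over the 12 libraries: H2-M10.1, H2-M10.2, H2-M10.4, H2-M10.5, H2-M10.6, H2-M2, H2-M5, H2-Q6 and H2-T3. With no filter, H2-Q10 had a log2 fold change of 1.66 ± 0.58 in OGD against Control (unadjusted p = 0.00973, adjusted p = 0.0628) and 1.49 ± 0.58 in Acacetin against Control (adjusted p = 0.0931), and neither passed.

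Genes that act with these in the pathway were read from the same fit by list. The background for each list below is the share of all tested genes that passed. That share was 28.8% for OGD against Control, 26.9% for Acacetin against Control and 0% for Acacetin against OGD. Whether any list departed from its background was not tested, so the counts describe single genes and not a pathway. Of 6 peptide loading chaperones, Calr, which holds class I heavy chains during loading, rose in OGD against Control and in Acacetin against Control and none fell. Calr averaged 1257 ± 162 CPM in Acacetin, 1501 ± 128 in OGD and 679.6 ± 100.3 in Control libraries (SD, n = 4 each), with log2 fold changes of 1.14 ± 0.16 and 0.89 ± 0.16 (adjusted p = 2.54e-04 and 0.00137). Of 5 constitutive proteasome and activator genes, Psme3, a nuclear activator subunit, rose in each comparison with Control (0.79 and 0.59 for OGD and Acacetin), and Psmb5, Psmb6, Psmb7 and Psme4 were not called. Of 7 tested class II protease and vesicle genes, Marchf8, a ubiquitin ligase that can target class II, rose in both (0.80 and 0.82) and the lysosomal thiol reductase Ifi30 rose in OGD (0.49); none fell.

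Of 10 transcription factors of the MHC promoter complex, Rfxank, a subunit of the factor that binds the X box, fell and Nfyc, a subunit of the factor that binds the Y box printed above, rose. Rfxank averaged 20.5 ± 6.19 CPM in Acacetin, 21.0 ± 3.76 in OGD and 50.4 ± 5.17 in Control libraries, and its log2 fold change was -1.26 ± 0.19 in OGD against Control (adjusted p = 4.53e-04) and -1.30 ± 0.19 in Acacetin against Control (adjusted p = 5.92e-04). Nfyc gave 0.99 and 0.75 in those comparisons, and Crebbp rose in Acacetin against Control (1.18). Of 17 interferon receptor, kinase and IRF genes, 3 rose (Socs1, Irf1 and Irf9) and 3 fell (Irf8, Tyk2 and Ifnar2) in OGD against Control, and 1 rose (Irf1) and 4 fell (Irf8, Tyk2, Irf7 and Ifnar2) in Acacetin against Control. Irf8, a transcription factor of the myeloid lineage, averaged 68.3 ± 14.8 CPM in Acacetin, 73.1 ± 13.04 in OGD and 147 ± 13.6 in Control libraries (SD, n = 4 each). In Acacetin against OGD none of the 17 was called; the smallest p belonged to Irf7, at -0.87 ± 0.18 (unadjusted p = 2.56e-04, adjusted p = 0.242).

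Of 8 tested molecules related to class I, Fcgrt, the neonatal Fc receptor, and Mr1, which presents vitamin metabolites, fell in OGD against Control (-1.26 and -1.38) and in Acacetin against Control (-1.36 and -1.10), where Cd1d1 also fell and Raet1d rose (-1.07 and 0.67). Of 8 tested costimulatory and checkpoint ligands, Cd276 and Cd274 fell in OGD against Control (-0.95 and -0.85), Cd276, Lgals9 and Tnfsf9 fell in Acacetin against Control (-0.99, -0.74 and -0.50), and none rose. Of 9 tested genes of cross-presentation and peptide trimming, Sec22b and Derl1 rose in OGD against Control (0.52 and 0.58) and in Acacetin against Control (0.54 and 0.54), and none fell. No gene of any of these lists was called in Acacetin against OGD.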

How the data were processed

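The members and the lists were chosen with earlier results of these data known. Reads per gene were deposited by the authors as raw counts, with FPKM per gene as a second deposited table that lacks some genes of the first. RNA was made into libraries with a stranded mRNA kit, per the labels' protocols, and HISAT2 with GRCm39, and DESeq2, appear among the tools in the submitters' processing notes. The counter, annotation and strand setting are not given in the sources used here, and how the counter treated reads of near-identical H2- genes is therefore unknown.

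From the counts, edgeR 4.0.16 (R 4.3.3) fitted all 12 libraries with a mean per group, TMM scaling, filterByExpr (minimum count 10, minimum total 15) and the quasi-likelihood test, with Benjamini-Hochberg adjustment over 13249 genes and a call at an adjusted p under 0.05. Alternatives were DESeq2 1.42.0, DESeq2 size factors, other filters, only the 8 libraries compared, the replicate number as a block, limma 3.58.1 on log2(FPKM + 1) and log2(FPKM + 0.1), removal of the trend with gene length, ribosomal RNA genes and Lars2 left out, and libraries left out. Changes in limma are on the log2(FPKM + pseudocount) scale, which understates those of low genes. On simulated counts for OGD against Control the main test recovered 4% of genes changed 1.5-fold and 37% of those changed 2-fold, and for Acacetin against OGD 6% and 40%. The simulation changed 100 genes at each fold among 13249, while 28.8% of genes were called in the data for OGD against Control. As the adjustment is stricter where fewer genes change, the simulated shares may understate recovery in that comparison. Every tested member is named; values of every library are given for 14 genes named in the rule, Ciita and H2-Ab1 among them, and for tested members called or with an unadjusted p under 0.01. Promoter windows are those of RefSeq on GRCm38.p6, and read sharing was counted in 75-base words over GENCODE transcripts. Groups come from the sample titles. Same-numbered OGD and Control libraries deviated together from their group means (correlations 0.132 to 0.597 over 4 pairs), and those of Acacetin with the other groups did not in every pair, so the blocked fit is set beside OGD against Control only where it changes a call. A B cell marker was left out of its list and is not reported here.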

Additional observations from a re-analysis of the deposited data

Results flagged for a closer look

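Of the 84 groups of 4 libraries formed by 28 genes and 3 groups, 7 held a library far from the other 3, that is, with a gap to its nearest neighbour above Dixon's critical share of the group's range. Chance gives about 1 in 20 for a single group, but these 84 reuse the same 12 libraries, so 7 cannot be compared with that rate. In the OGD group, library 4 was the low one for 5 genes. OGD 4 had the most positive length slope (0.131) and the highest TMM factor (1.24) of its group. The part of either in these values was not tested. Psmb8 stood at 284 CPM in OGD 4, where the other OGD libraries held 383 to 391 CPM. Psmb9 stood at 36.3 CPM in OGD 4, where the others held 51.9 to 54.2 CPM. Psme1 stood at 271 CPM and Psme2 at 190.1 CPM in OGD 4, where the others held 345 to 359.9 CPM and 273 to 289 CPM. H2-D1 stood at 1316 CPM in OGD 4, where the others held 1530.2 to 1537 CPM. H2-Q1 was high in OGD 2, at 0.949 CPM beside 0.537 to 0.585 CPM. H2-Oa was high in Control 1, at 96.3 CPM beside 73.8 to 74.5 CPM.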

How the results depend on the processing

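Counts of called members were 9 in OGD against Control, and 7 to 12 under the alternatives; 0 in Acacetin against OGD under all of them; and 16 in Acacetin against Control, and 10 to 23. Leaving out 1 library gave 8 to 11, 0 and 10 to 23, the lowest without Acacetin 2. With the replicate number as a replicate block the counts were 10, 0 and 18. The share of all tested genes called moved as well. In OGD against Control it ran between 14.34% (no filter) and 38.02% (only the 8 libraries compared). With the block it was 34.51%, beside 28.8% as reported. In Acacetin against Control it ran between 14.033% (no filter) and 43.1% (without Acacetin 1). With the block it was 32.3%, beside 26.9% as reported. With no filter 24934 genes were tested. The part of this background in the member counts was not tested. The block changed no call in OGD against Control other than that of H2-M3. In Acacetin against Control, where the libraries share only a number, B2m (adjusted p = 0.0443) and Cd74 (adjusted p = 0.0221) passed with the block and no call was lost. Of the same-numbered Acacetin libraries 2 of 4 correlated above 0.1 with Control and 3 of 4 with OGD, the lowest correlations being -0.35 and -0.15, and not every library correlated best with its own number. Of 25 called changes 0 changed sign, 11 were called in every alternative, and 14 were lost in at least 1, as given with each gene. For these the cause was not tested. Of the member values not called as reported, 12 passed in at least 1 alternative, 5 in OGD against Control and 7 in Acacetin against Control. Besides those given with their gene, Tap1 passed in OGD against Control with only the 8 libraries compared (adjusted p = 0.0367) and without ribosomal RNA genes (adjusted p = 0.0487). In limma on FPKM, Psmb9 (adjusted p = 0.0498) and Psme1 (adjusted p 0.0471 to 0.0492) passed in OGD against Control, and with the length trend removed H2-K1 passed in Acacetin against Control (adjusted p = 0.0291). H2-Aa, at 0.07 to 0.48 FPKM, shrank to a log2 fold change of -0.35 in Acacetin against Control with log2(FPKM + 1), by the construction of that scale. FPKM scaling moved the median of all genes in Acacetin against OGD to 0.16 with a pseudocount of 1 and 0.24 with 0.1, beside -0.02 with TMM.

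The remaining changes of sign were among values not called as reported; 1 of these, Erap1 in Acacetin against Control, passed without Acacetin 1 (adjusted p = 0.0281). In Acacetin against OGD, limma on log2(FPKM + 1) and on log2(FPKM + 0.1) gave B2m 0.12 and 0.12, H2-DMa 0.094 and 0.16, H2-DMb1 0.12 and 0.13, H2-M3 0.14 and 0.14, H2-T23 0.098 and 0.10, H2-T24 0.053 and 0.092, Psme2 0.0090 and 0.0092 and Tapbpl 0.023 and 0.033. The same fits gave H2-Q4 -0.017 and -0.019 and H2-T24 -0.067 and -0.11 in OGD against Control, and Tapbp 0.012 and 0.012 in Acacetin against Control. H2-T24 in OGD against Control was also -0.011 with DESeq2, -0.0094 with its size factors and -0.0081 without ribosomal RNA genes. Without OGD 2 and OGD 3, Acacetin against OGD gave B2m 0.052, H2-M3 0.12, H2-Oa -0.010 and Nlrc5 -0.044, and OGD against Control gave Erap1 0.080 and Tap2 0.0024. Without Acacetin 1 and Acacetin 3, Acacetin against OGD gave H2-Eb1 -0.14, H2-Ke6 -0.11 and H2-Oa -0.19. With the length trend removed Nlrc5 was -0.092 in Acacetin against OGD, and with the replicate block H2-Oa was -0.035.

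Leaving out 1 library, Acacetin against OGD ranged between -0.17 and 1.28 for Erap1, -0.22 and 0.0044 for H2-DMa, -0.35 and 0.016 for H2-DMb1, -0.20 and 0.57 for H2-Eb1, -0.19 and 0.16 for H2-Ke6, -0.34 and 0.18 for H2-Oa, and -0.15 and 0.18 for Nlrc5. OGD against Control ranged between -0.25 and 0.16 for Erap1, -0.040 and 0.037 for H2-D1, -0.053 and 0.059 for H2-K1, -0.25 and 0.21 for H2-Q1, -0.070 and 0.13 for H2-T24, -0.13 and 0.049 for Psme2, and -0.060 and 0.025 for Tap2. Acacetin against Control ranged between -0.17 and 1.27 for Erap1, whose 10.96 CPM in Acacetin 3 decided its sign, and -0.24 and 0.010 for Tapbp. The call share of 2-fold changes on simulated data, in which few genes were changed, limits what an uncalled gene shows. Genes under about 1 CPM rest on few reads.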

Other observations

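H2- rows that the table types as pseudogenes were left out of the list above. H2-K2 averaged 1.58 ± 0.724 CPM in Acacetin, 1.65 ± 0.684 CPM in OGD and 4.12 ± 0.532 CPM in Control libraries (SD, n = 4 each), with a log2 fold change of -1.32 ± 0.36 in OGD against Control (edgeR adjusted p = 0.0137) and -1.38 ± 0.36 in Acacetin against Control (adjusted p = 0.0119). H2-T-ps averaged 1.38 ± 0.286 CPM in Acacetin, 1.66 ± 0.585 CPM in OGD and 3.44 ± 0.472 CPM in Control libraries, with -1.07 ± 0.28 (adjusted p = 0.0101) and -1.32 ± 0.27 (adjusted p = 0.00365) in those comparisons. H2-T10, which shares sequence with H2-T22, averaged 1.00 ± 0.518 CPM in Acacetin, 1.30 ± 0.400 CPM in OGD and 2.43 ± 0.150 CPM in Control libraries, and fell in Acacetin against Control (-1.30 ± 0.34, adjusted p = 0.0121). In OGD against Control H2-T10 was not called (-0.89 ± 0.33, adjusted p = 0.0605), although its OGD libraries, at 0.781 to 1.75 CPM, lay under its Control libraries, at 2.30 to 2.62 CPM. H2-Q5 was the one that rose, with 1.08 ± 0.422 CPM in Acacetin, 1.63 ± 0.673 CPM in OGD and 0.654 ± 0.131 CPM in Control libraries. Its log2 fold change was 1.30 ± 0.39 in OGD against Control (adjusted p = 0.0227), and Acacetin was not called against either group.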
